A study of Homo sapiens with 12 samples.

Results

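The tetraspanin genes, with TSPAN33 among them, were described in K562 cells, a human line grown from a chronic myeloid leukemia that carries erythroid features. The members were the genes of the deposited expression table with a symbol made of TSPAN and a number, together with CD9, CD37, CD53, CD63, CD81, CD82, CD151, UPK1A, UPK1B, PRPH2 and ROM1, which gave 33 genes of 27348 in the table. The family was chosen by name, but TSPAN33 was singled out in it with its value in the authors' own comparison of these RNA libraries known, and that comparison is not used here. Cells carried either an shRNA against the Polycomb-like protein PHF19 (sh#1 or sh#2) or the empty vector as the control (shCT). RNA-seq had 2 libraries for each of sh#1, sh#2 and shCT. ChIP-seq had 1 library for each condition, with PHF19 in sh#1, sh#2 and shCT, MTF2 in sh#2 and shCT, and IgG in shCT, and 3 peak lists were analysed: MTF2 in sh#2 cells, MTF2 in shCT cells and PHF19 in shCT cells. All cells were K562, a single line, so the values describe that line and no other cell.

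Tetraspanins are small proteins that cross the membrane several times and gather integrins, immunoglobulin superfamily proteins, receptors and proteases into membrane domains. One subgroup, TspanC8, comprises TSPAN5, TSPAN10, TSPAN14, TSPAN15, TSPAN17 and TSPAN33 and carries the protease ADAM10, which sheds Notch receptors and other surface proteins, to its site of action. In the mouse, loss of Tspan33 disturbs the formation of red cells. PHF19 and its homolog MTF2 are accessory subunits of the Polycomb repressive complex PRC2, which methylates histone H3 at repressed genes, and MTF2 binds DNA rich in unmethylated CG dinucleotides.

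The starts of TSPAN33, TSPAN5, TSPAN15, TSPAN14 and TSPAN17 are printed first because they include genes with and without a peak at the start in the TspanC8 subgroup. Each sequence holds 250 bases before and 50 bases after the transcription start of the canonical transcript, read 5′ to 3′ along the gene from GRCh37 (hg19), and the capitals mark CG dinucleotides. The number of CG dinucleotides in them was 16 for TSPAN33, 50 for TSPAN5, 20 for TSPAN15, 53 for TSPAN14 and 25 for TSPAN17, against a median of 20 over the 24386 genes placed on the genome, of which 97.4% held at least 1 CG. The starts of TSPAN33, TSPAN5 and TSPAN15 lay under a peak of at least 1 list, and those of TSPAN14 and TSPAN17 under none. TSPAN14 had the most CG dinucleotides of these genes and no peak, while TSPAN33 had the fewest and a peak in all 3 lists. The family as a whole went the other way, with a median of 32.5 at members with a peak within 2.5 kb of a start and 14 at those without. Over all placed genes these medians were 25 and 19. For a peak anywhere in the gene region the medians were 29 and 14 in the family, and 23 and 19 over all placed genes.
TSPAN33, chr7:128784474-128784773, plus strand: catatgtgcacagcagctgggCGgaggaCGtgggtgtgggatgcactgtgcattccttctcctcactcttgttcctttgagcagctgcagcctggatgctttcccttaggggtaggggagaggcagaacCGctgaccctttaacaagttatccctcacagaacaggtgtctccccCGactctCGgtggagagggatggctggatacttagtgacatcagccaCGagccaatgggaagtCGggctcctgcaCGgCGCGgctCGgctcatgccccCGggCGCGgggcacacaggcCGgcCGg
TSPAN5, chr4:99579713-99580012, minus strand: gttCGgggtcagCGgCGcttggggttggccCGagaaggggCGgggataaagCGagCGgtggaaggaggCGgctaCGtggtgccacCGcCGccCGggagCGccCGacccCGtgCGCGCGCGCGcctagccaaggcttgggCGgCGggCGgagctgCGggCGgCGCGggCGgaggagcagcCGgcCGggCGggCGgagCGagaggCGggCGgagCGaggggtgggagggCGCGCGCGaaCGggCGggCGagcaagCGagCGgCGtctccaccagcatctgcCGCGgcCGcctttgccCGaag
TSPAN15, chr10:71210971-71211270, plus strand: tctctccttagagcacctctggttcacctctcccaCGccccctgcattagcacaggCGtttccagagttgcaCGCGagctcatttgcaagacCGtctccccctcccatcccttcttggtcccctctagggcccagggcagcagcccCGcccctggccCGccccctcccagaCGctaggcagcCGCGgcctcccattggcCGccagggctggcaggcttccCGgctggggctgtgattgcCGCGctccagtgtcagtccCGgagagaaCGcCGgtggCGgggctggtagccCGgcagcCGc
TSPAN14, chr10:82213816-82214115, plus strand: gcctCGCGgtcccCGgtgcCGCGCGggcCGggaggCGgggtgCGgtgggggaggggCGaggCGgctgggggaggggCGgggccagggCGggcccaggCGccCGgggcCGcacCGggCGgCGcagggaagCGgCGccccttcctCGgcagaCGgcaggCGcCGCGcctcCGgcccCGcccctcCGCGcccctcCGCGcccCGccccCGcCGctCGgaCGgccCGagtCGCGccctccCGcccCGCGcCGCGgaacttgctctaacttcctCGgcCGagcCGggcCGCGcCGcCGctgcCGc
TSPAN17, chr5:176074235-176074534, plus strand: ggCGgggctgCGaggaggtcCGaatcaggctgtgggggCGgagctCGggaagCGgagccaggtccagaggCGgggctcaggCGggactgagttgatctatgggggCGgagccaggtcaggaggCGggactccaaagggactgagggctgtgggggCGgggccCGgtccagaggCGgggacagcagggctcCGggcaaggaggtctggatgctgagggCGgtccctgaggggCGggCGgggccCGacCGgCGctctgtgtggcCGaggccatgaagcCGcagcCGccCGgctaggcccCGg

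The lists held 18287 MTF2 peaks in sh#2 cells, 12502 MTF2 peaks in shCT cells and 5621 PHF19 peaks in shCT cells, over 63.2, 29.0 and 11.5 Mb. Peak scores began at 50 in each list, and their medians were 112, 86.6 and 72.3. Scores and numbers of peaks were not scaled between lists, so a peak is given with its rank in its own list, and with 1 library for each condition no difference between lists has a replicate check or a test. The heading inside the MTF2 list labelled sh#2 names sh4, and the heading of the PHF19 list names sh4 beside shCT, so which control the peak caller used is not known, and the library is called sh#2 after its label. The 11 markers of K562 cells had mean normalized counts between 632 and 171752. Of 11 markers of B cells, T cells, monocytes, epithelium and fibroblasts, 6 were below 10, the B cell marker MS4A1 was listed at 0, and EPCAM, at 3071, and CD3D, at 962, were the highest. PHF19 itself had a mean of 7798 and MTF2 a mean of 2797, and since a mean over all libraries does not separate sh#1 and sh#2 from shCT, the depletion of PHF19 was not checked here.

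In these cells CD63, CD81 and CD151 had the highest RNA levels of the family, and TSPAN1, TSPAN2, TSPAN11, TSPAN16 and TSPAN19 the lowest. RNA levels are the authors' mean of normalized counts over all 6 RNA libraries, which has no error or number of replicates of its own, and levels between genes are compared per kb of exon. In such bulk RNA, fewer expressing cells and less RNA per cell cannot be told apart. CD63, a protein of late endosomes and exosomes, was highest with 10655 per kb, followed by CD81, with 3369, and CD151, which binds laminin-binding integrins, with 1793. TSPAN13 had 1718 per kb, the leukocyte protein CD53 had 889 and TSPAN17 had 626. The order among these cannot be set against any spread, and CD151 and TSPAN13 were the closest neighbours in it.

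A mean of at least 10 was reached by 23 of the 33 members (69.7%), against 57.5% of all placed genes. All 7 CD-named members passed it, with means from 97.3 to 10900, as did 5 of the 6 TspanC8 genes, 9 of the 16 other TSPAN genes, and 2 of the 4 urothelial and retinal genes. The 5 members under 1 were TSPAN1, TSPAN2, TSPAN11, TSPAN16 and TSPAN19, with TSPAN2 listed at 0. Some levels share exons with a gene on the opposite strand, and whether the counting used strand is not given in the sources used here: 1078 of 3678 exonic bases of TSPAN31 overlap CDK4, whose mean was 8651, and 271 of 1265 bases of UPK1A overlap UPK1A-AS1. The overlaps of TSPAN18, CD81 and CD37 with a neighbour were of 76, 30 and 12 bases.

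**Figure D1:**
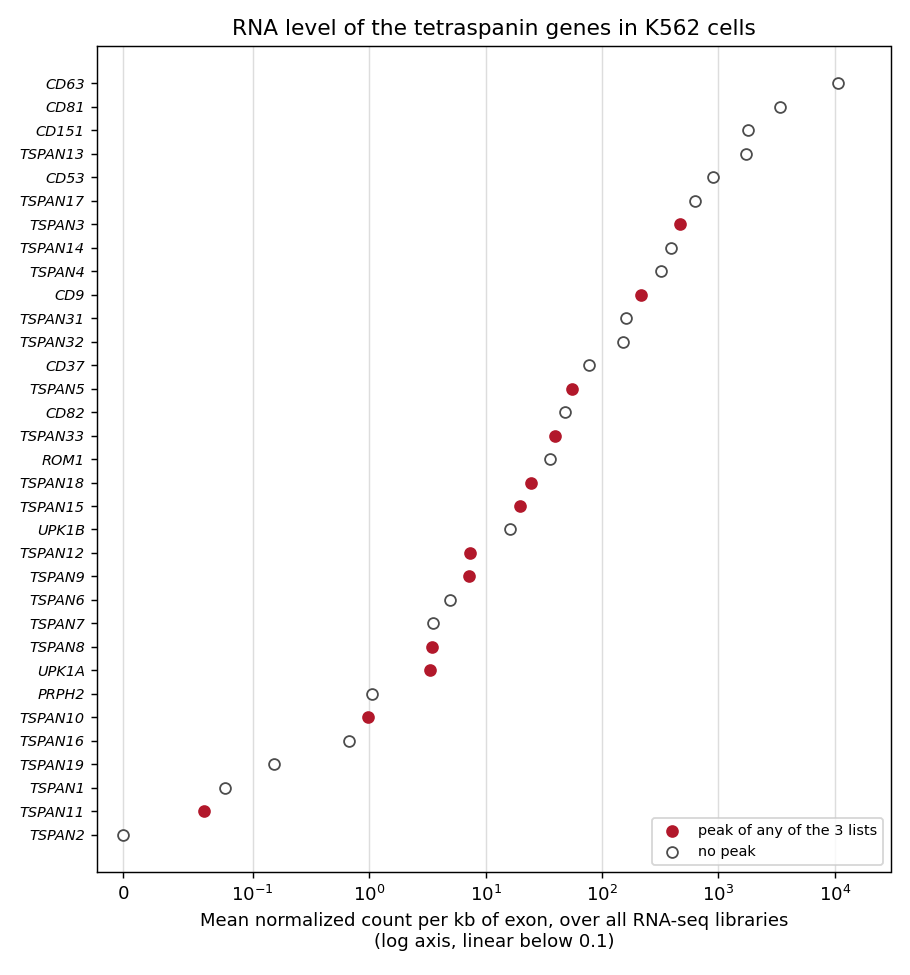
RNA level of the 33 tetraspanin genes, as the authors' mean normalized count per kb of exon over all 6 RNA libraries (log axis, linear below 0.1), highest at the top. Filled points mark the 12 genes with a peak of any of the 3 lists and open points the 21 without; CD63, CD81, CD151, TSPAN13 and CD53 are the highest and none of them holds a peak.

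Peaks of MTF2 or PHF19 lay at 12 of the 33 members (36.4%), against 21.2% of all placed genes, and 21 members had none. A gene was counted as a target where at least 1 base of a peak fell between 2.5 kb upstream of a start and the end of a coding transcript. MTF2 targets in sh#2 cells were 10 of 33 members (30.3%), against 17.6% of all placed genes. MTF2 targets in shCT cells were 11 of 33 (33.3%), against 13.1%, and PHF19 targets were 6 of 33 (18.2%), against 9.84%. With the promoter alone, 2.5 kb either side of a start, 8 members were MTF2 targets in sh#2 cells (24.2%), against 14.8% of all genes. MTF2 targets in shCT cells numbered 6 (18.2%), against 10.4%, and PHF19 targets 5 (15.2%), against 7.32%. Both MTF2 counts include TSPAN8, through a start far upstream of its canonical one, where the peaks lie at or near the start of LGR5. The shCT count includes CD9, whose peak scored 50.8, just above the lowest score of the list. The PHF19 targets were TSPAN5, TSPAN10, TSPAN12, TSPAN18, TSPAN33 and UPK1A, and 5 of the 6 were also MTF2 targets in shCT cells, against 64.8% of the 2399 PHF19 targets among all genes. TSPAN10 was the exception. This is a count by gene, not by site: at TSPAN12 and UPK1A no PHF19 peak overlapped an shCT MTF2 peak. By peak, 3 of the 13 PHF19 peaks at members overlapped one (23.1%), against 47.5% of the whole list.

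The members with peaks were longer, by their median, than those without. Their regions had a median of 65689 bp, against 24466 bp for the members without a peak, and the same medians over all placed genes were 41624 and 19878 bp. None of the 5 members with regions under 10 kb was a target, and of all genes that short 11.2% were MTF2 targets in sh#2 cells, 7.58% in shCT cells and 4.44% were PHF19 targets. Of the longest members, 4 of the 5 over 100 kb were MTF2 targets in both lists and 2 were PHF19 targets. These 4 include TSPAN8, whose region of 319314 bp reaches the start of a long transcript far upstream of its canonical start. Its only peaks lie there and also fall in the region of LGR5, at or near the LGR5 start. Among all genes over 100 kb, 29.9% were MTF2 targets in sh#2 cells, 23.9% in shCT cells and 17.5% were PHF19 targets, and the part of gene length in the members' counts was not tested. Members with a peak had a median level of 13.6 per kb, against 77.3 per kb for those without, and over all placed genes the medians were 1.68 and 42.9 per kb. Of the 8 members with a mean of 1000 or more, 1 was an MTF2 target in each list (TSPAN3) and none was a PHF19 target, against 3.52% for MTF2 in sh#2 cells, 2.57% for MTF2 in shCT cells and 6.84% for PHF19 over all genes at that level.

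TSPAN33, on chromosome 7 from 128784724 to 128809540 on the plus strand, was the member with the most bases under PHF19 peaks. Its start lay under a peak of all 3 lists. The MTF2 peak in sh#2 cells ran from 128782096 to 128789009 with a score of 129, rank 8036 of 18287. The MTF2 peak in shCT cells ran from 128782065 to 128788915 with a score of 159, rank 2890 of 12502. The 3 peaks thus cover nearly the same stretch around the start, and the PHF19 peak, from 128782743 to 128789029 with a score of 170, ranked 568 of 5621. PHF19 had 2 further peaks, 17289 and 22874 bp downstream of the start over the later exons, with scores of 71.1 and 72.2, near the median of the list, and no MTF2 peak of either list overlapped them. The last of these ran past the transcript end.

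The bases of the TSPAN33 region under MTF2 peaks were 6786 in sh#2 cells and 6692 in shCT cells, and 11821 lay under PHF19 peaks, of a region of 27317 bp. The MTF2 ratio of sh#2 to shCT was 1.01, the lowest among the 10 members that were targets in both lists, and 9.41% of the 2996 such genes had a ratio at or below it. With each list trimmed to its 5621 strongest peaks, TSPAN33 kept its peak in shCT cells and had none in sh#2 cells, because its sh#2 peak ranked lower in the longer list. TSPAN33 had a mean normalized count of 110, or 39.7 per kb, which was at or above that of 55.5% of placed genes.

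**Figure D2:**
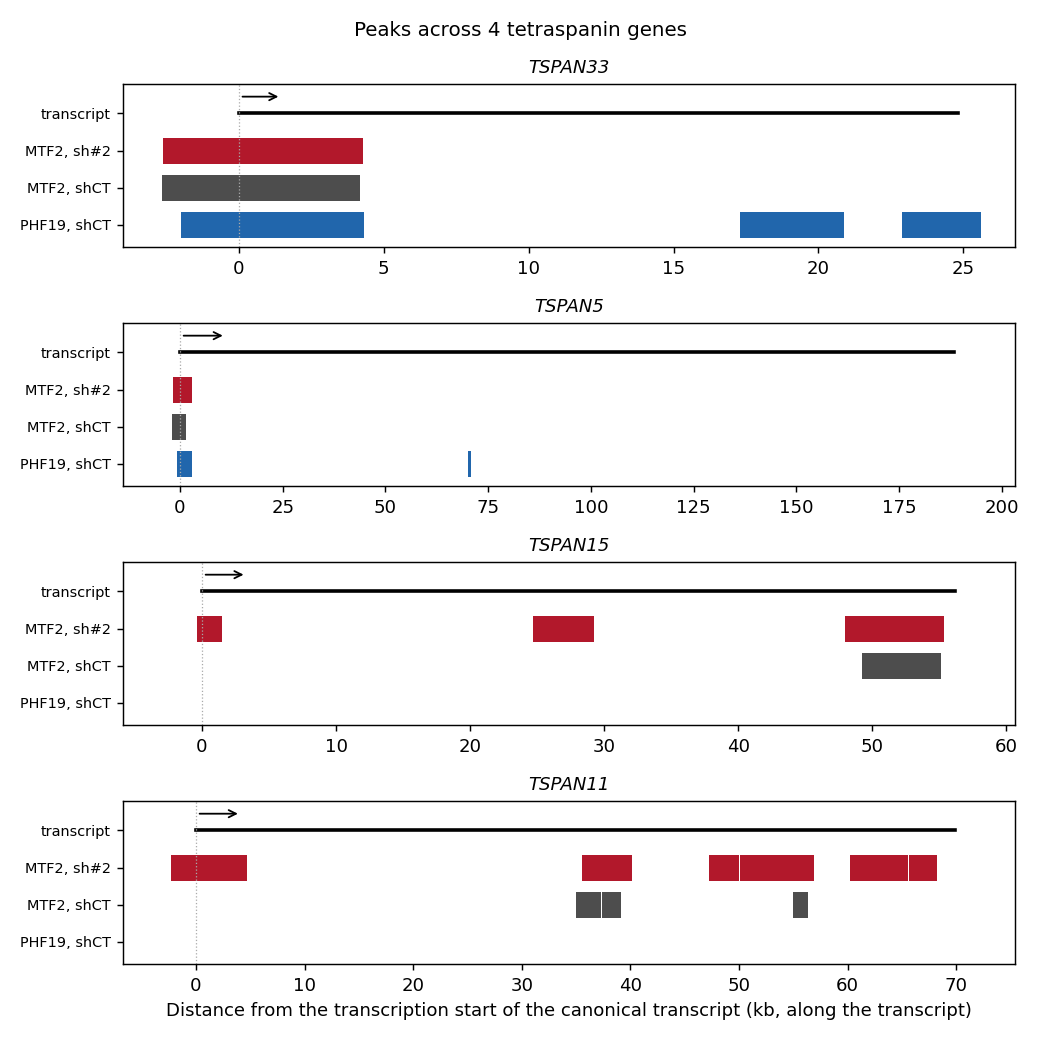
Peaks of the 3 lists across TSPAN33, TSPAN5, TSPAN15 and TSPAN11, as distance in kb from the transcription start of the canonical transcript (black line, arrow along the gene), with MTF2 in sh#2 in red, MTF2 in shCT in grey and PHF19 in shCT in blue. The start of TSPAN33 and of TSPAN5 lies under a peak of each list, while TSPAN15 and TSPAN11 have a peak at the start in the MTF2 sh#2 list alone.

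Of the other TspanC8 genes, TSPAN5 also had a start peak in each list, and each ranked higher than that of TSPAN33. The MTF2 start peak of TSPAN5 stood higher in the sh#2 list than in the shCT list, while that of TSPAN33 stood lower. TSPAN5 lies on chromosome 4 from 99391518 to 99579762 on the minus strand. Its MTF2 start peak scored 881 in sh#2 cells, rank 613 of 18287, and 349 in shCT cells, rank 950 of 12502. Its PHF19 start peak scored 184, rank 487 of 5621, and a weaker PHF19 peak of 56.2 lay 69994 bp into the gene, in an intron. Both MTF2 peaks of TSPAN5 therefore stood high in their lists, with 96.7% of peaks at or below it in sh#2 cells and 92.4% in shCT cells, and the bases under them were 4518 in sh#2 cells and 3464 in shCT cells.

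TSPAN15, on chromosome 10 from 71211221 to 71267422, was an MTF2 target without PHF19. Its strongest MTF2 peak lay over exons near the gene's end, with a score of 537 in sh#2 cells, rank 1526, and 274 in shCT cells, rank 1400. In sh#2 cells there were a peak of 73.9 at the start and one of 115 in an intron 24666 bp downstream, and no shCT peak lay at either place. The bases under MTF2 peaks were 13839 in sh#2 cells and 5845 in shCT cells. TSPAN10, on chromosome 17, had 1 peak, of PHF19, with a score of 70.6 and rank 2935, and this peak also covered the start of the neighbouring gene NPLOC4, so it cannot be assigned to either gene.

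TSPAN14 and TSPAN17 were the TspanC8 genes with no peak and had the highest RNA levels of the subgroup. TSPAN17 had 626 per kb and TSPAN14 391 per kb, against 54.8 for TSPAN5, 39.7 for TSPAN33, 19.8 for TSPAN15 and 0.98 for TSPAN10. The protease they carry, ADAM10, had 429 per kb and no peak of any list. The nearest MTF2 peak to the TSPAN17 region was 8661 bp away in sh#2 cells and 15274 bp away in shCT cells, and the nearest PHF19 peak 15668 bp. For TSPAN14 the MTF2 distances were 57617 bp in sh#2 cells and 85968 bp in shCT cells, with PHF19 at 522752 bp. With 6 genes, the order of the levels is a description of this subgroup only.

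Every member that was an MTF2 target in both lists had more bases under MTF2 peaks in sh#2 cells than in shCT cells, 10 of 10, as did 91.4% of the 2996 such genes overall. The median ratio was 2.33 over the members, with a range from 1.01 to 8.17, against 1.80 over all such genes, whose quartiles were 1.28 and 2.84. The sh#2 list holds more and wider peaks over the whole genome, with a median width of 2598 bp against 1780 bp in shCT, and the part of this in the members' ratios cannot be told apart from a change at these genes with 1 library each. With all lists trimmed to 5621 peaks, 6 of 33 members had more bases in sh#2, against 8.88% of all placed genes. No member was a target in sh#2 cells and not in shCT cells over the gene region, against 5.34% of all genes, but at promoters 3 were, TSPAN11, TSPAN12 and TSPAN15, against 5.1%.

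TSPAN18, TSPAN9 and TSPAN11 had the most bases under MTF2 peaks in sh#2 cells. TSPAN18 and TSPAN9 have long regions, of 208460 and 211710 bp. As a share of the region they had 17.3% and 16.7%, below UPK1A (45.2%), TSPAN11 (40.0%), TSPAN33 (24.8%) and TSPAN15 (23.6%). TSPAN18, which acts on calcium entry in endothelial cells, had 36030 bases under 10 MTF2 peaks in sh#2 cells and 4412 bases under 2 MTF2 peaks in shCT cells, a ratio of 8.17 that was the largest in the family. Its start peak scored 903 in sh#2 cells, rank 578, and 151 in shCT cells, rank 3101, and a PHF19 peak of 79.9, rank 2320, lay at the same start. TSPAN9, a tetraspanin of platelets, had 35408 bases under 19 peaks in sh#2 cells and 8450 bases under 7 peaks in shCT cells, mostly in introns, with no PHF19 peak. The TSPAN9 peaks lay at its start and far along a region of 211710 bp. TSPAN11 had 29089 bases in sh#2 cells and 5408 in shCT cells, including a start peak in sh#2 cells that scored 254, rank 4053, where shCT had none, and its mean count of 0.34 was among the lowest in the family.

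**Figure D3:**
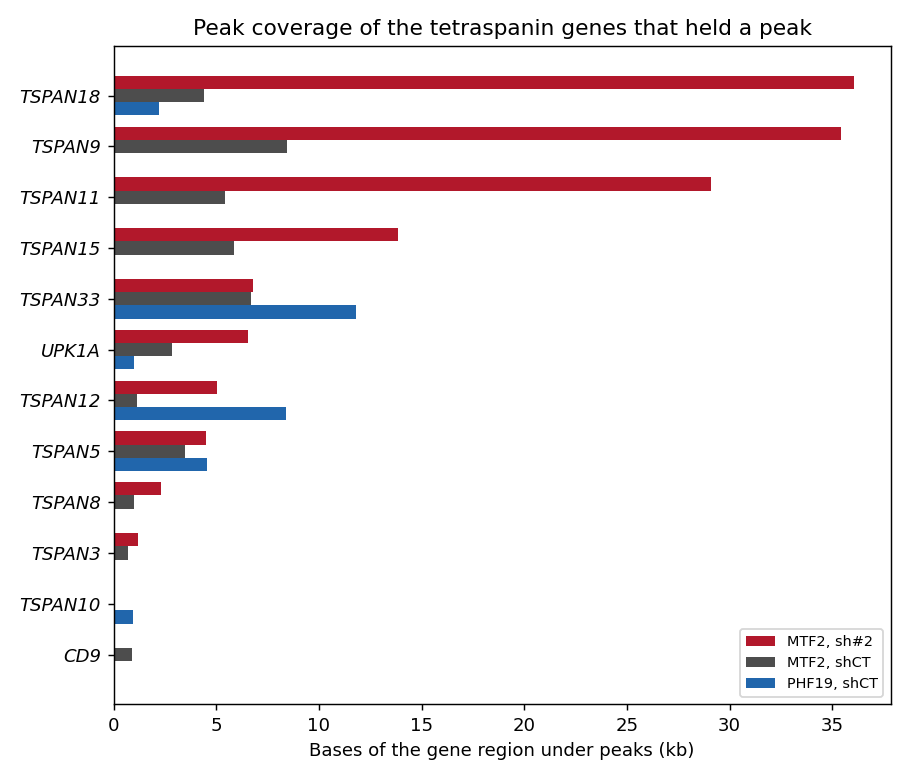
Bases of the gene region under peaks, in kb, for the 12 tetraspanin genes that held a peak, with bars from 0 for MTF2 in sh#2 (red), MTF2 in shCT (grey) and PHF19 in shCT (blue), 1 library each. TSPAN18, TSPAN9 and TSPAN11 have the longest sh#2 bars, TSPAN33 the longest PHF19 bar and nearly equal MTF2 bars.

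TSPAN12, a co-receptor in Norrin signaling through FZD4 in retinal vessels, had the most PHF19 peaks. It had 5, the strongest scoring 147, rank 759, in an intron 51601 bp downstream of the start, and one of 75.2 at the start, for 8408 bases in all. MTF2 covered 5015 bases in sh#2 cells, with a start peak of 128, and 1146 bases in shCT cells, in a single intronic peak of 52.3 that ranked 11723 of 12502. UPK1A, a protein of urothelial plaques, had peaks within the gene and none at its promoter: 6540 bases under MTF2 in sh#2 cells and 2842 in shCT cells, and 1009 bases under a PHF19 peak of 58.9. All but 1 of the UPK1A peaks also lay at UPK1A-AS1 on the opposite strand.

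TSPAN8 and TSPAN3 were targets by peaks far from their main start. The TSPAN8 peaks scored 99.6 in sh#2 cells and 65.6 in shCT cells and lay 281636 bp upstream of the canonical start in sh#2 cells and 282558 bp in shCT cells, near the start of one long coding transcript. The same peaks also fall in the region of LGR5: the sh#2 peak covers the canonical start of LGR5 and the shCT peak lies 759 bp from it. They are thus far nearer to that start than to the canonical start of TSPAN8 and cannot be assigned to TSPAN8. The TSPAN3 peaks scored 88.2 in sh#2 cells, 3831 bp upstream, and 91.8 in shCT cells, 4195 bp upstream. Neither gene was a target with the canonical transcript alone, an alternative chosen after seeing the data. CD9, a tetraspanin of platelets and of egg and sperm fusion, was the 1 member with MTF2 in shCT cells and not in sh#2 cells, against 0.857% of all genes. Its peak covered the start with a score of 50.8, just above the lowest score of 50, and ranked 12229 of 12502. CD37, CD53, CD63, CD81, CD82 and CD151 had no peak of any list.

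The 21 members without a peak comprised 10 of the 16 other TSPAN genes, 6 of the 7 CD-named genes, 3 of the 4 urothelial and retinal genes, and TSPAN14 and TSPAN17. Their levels ran from 0 for TSPAN2 to 10655 per kb for CD63, so the member listed at 0 and the most highly expressed one both lacked peaks. The CD-named ones among them ran from 48.1 per kb for CD82 to that of CD63. The distance from their regions to the nearest MTF2 peak had a median of 120 kb in sh#2 cells and 170 kb in shCT cells, and 123 kb to the nearest PHF19 peak. The closest were 4.75 kb for MTF2 in sh#2 cells, 5.10 kb for MTF2 in shCT cells and 7.40 kb for PHF19. As a share of the gene region, MTF2 coverage in sh#2 cells was highest at UPK1A, with 45.2% in sh#2 cells and 19.6% in shCT cells, and PHF19 coverage was highest at TSPAN33, with 43.3%. TSPAN11 had 40.0% under MTF2 peaks in sh#2 cells and 7.44% in shCT cells. In TSPAN33 the MTF2 shares were 24.8% in sh#2 cells and 24.5% in shCT cells, the second of which was the highest of any member in that list.

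**Figure D4:**
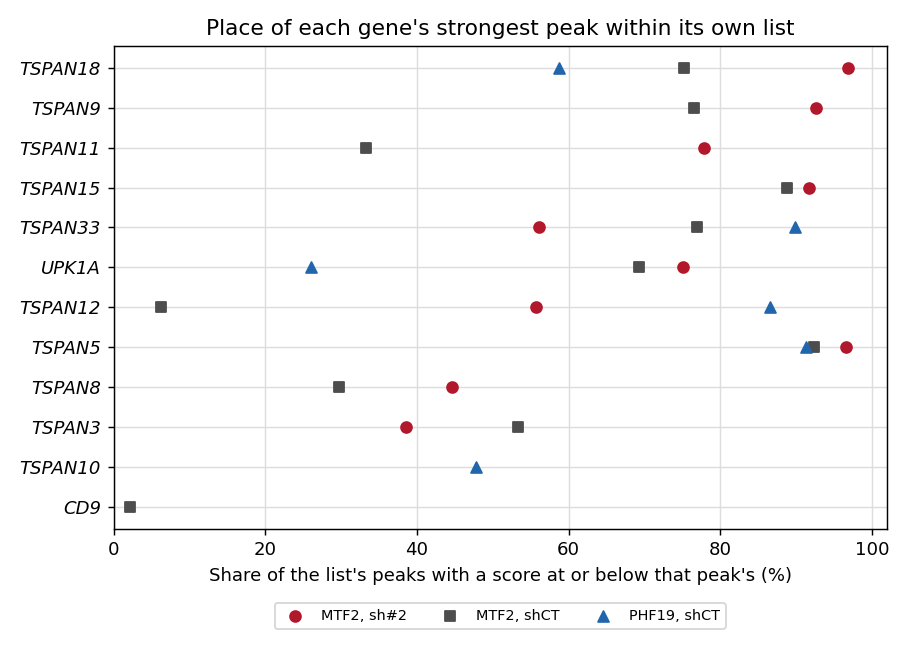
Place of each gene's strongest peak within its own list, as the percentage of that list's peaks with a score at or below it, for MTF2 in sh#2 (red circles), MTF2 in shCT (grey squares) and PHF19 in shCT (blue triangles). TSPAN5 is above 90% in all 3 lists, TSPAN33 stands higher in the PHF19 list than in either MTF2 list, and CD9 is at 2.19% of the MTF2 shCT list.

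At the members, the share of shCT MTF2 peaks met by an sh#2 peak was near that of the whole list. The share of PHF19 peaks met by MTF2 was lower than in the whole list. Of 50 MTF2 peaks at members in sh#2 cells, 16 (32.0%) overlapped an shCT MTF2 peak, against 46.9% of the whole list, and 5 (10.0%) overlapped a PHF19 peak, against 15.9%. Of 21 MTF2 peaks in shCT cells, 18 (85.7%) overlapped an sh#2 peak, against 83.2%, and 3 (14.3%) a PHF19 peak, against 21.4%. Of 13 PHF19 peaks, 5 (38.5%) overlapped an MTF2 peak of sh#2 cells, against 57.5%, and 3 (23.1%) one of shCT cells, against 47.5%. Several peaks share a gene, so these are descriptions of a few genes: TSPAN9 alone gave 19 of the 50 and TSPAN12 gave 5 of the 13. Peaks at members held 23.7 CG per kb for MTF2 in sh#2 cells, 30.8 for MTF2 in shCT cells and 28.5 for PHF19, against 25.1, 29.1 and 28.2 over the whole lists.

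The proteins that tetraspanins bind were described from a list of 42 partner genes. Of these, 13 were MTF2 targets in sh#2 cells (31.0%), 10 in shCT cells (23.8%) and 5 were PHF19 targets (11.9%), against 17.6%, 13.1% and 9.84% of all placed genes. The PHF19 targets were ITGA3 and ITGA7, subunits of laminin receptors, IGSF3, MET, the receptor of hepatocyte growth factor, and PLEKHA7, an adherens junction protein that, with PDZD11, docks TSPAN33 and ADAM10 at junctions. PLEKHA7 had a PHF19 peak of 158, rank 662, and MTF2 peaks on 12653 bases in sh#2 cells and 4963 in shCT cells. The PHF19 peaks of PLEKHA7 and MET lay in the gene region but not at a promoter. At ITGA3 the PHF19 peak scored 135, rank 873, and the MTF2 peaks reached 875 in sh#2 cells, rank 625, and 465 in shCT cells, rank 560. MTF2 was found in sh#2 cells alone at 4 of 42 (9.52%), CD44, CD8A, EGFR and MET, against 5.34% of all placed genes. Their strongest peaks ranked from 8073 at CD8A to 14811 at MET, of 18287. In shCT cells alone MTF2 was found at TSG101 (2.38%), against 0.857%, by a peak of 56.4 that ranked 10576 of 12502. PDZD11, ITGB1 and ADAM10 had no peak.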

How the data were processed

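The analysis started from 3 ChIP-seq peak lists and 1 expression table, from 6 ChIP-seq and 6 RNA-seq libraries of K562 cells. Per the study's methods, ChIP reads were aligned with Bowtie to hg19 with the fly genome dm3 as spike-in, and MACS called peaks with a shift size of 100 bp; the authors aligned RNA reads with TopHat and compared them with DESeq2. The sources used here do not name versions. The deposited peak score was read as a rank within its list, and the tag minimum that the authors set for PHF19 peaks was not applied. The PHF19 list used here is longer than the set of peaks the authors kept. Some PHF19 targets given here may therefore not be targets by their definition. The deposited mean normalized count (a score, not raw counts) is the authors' mean over all libraries. The table also holds the authors' own fold changes, standard errors, statistics and p-values of PHF19 depletion, which were not used.

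Symbols were matched to GENCODE release 44 on GRCh37, 24386 of 27348, with 1025 through RefSeq synonyms. Overlaps were counted with Python 3.11.15, numpy 2.4.6 and pandas 2.3.3, and the overlap step was tested on simulated data; figures were drawn with matplotlib 3.10.9. The authors used RefSeq genes. Sequences come from the GRCh37 genome. The start sequence of 1 TspanC8 gene is not reported here. Members and lists were chosen with earlier results of these data known. Named with full values were TspanC8 genes, PHF19 targets, genes with MTF2 in one list alone, the 6 highest levels per kb and PHF19 targets among the partners; TSPAN3, TSPAN8, TSPAN9 and TSPAN11 were added after their values were seen. Depth of the libraries and tag counts of the peaks were not used here, so no interval is given. Alternatives were the promoter alone, all transcripts, the canonical transcript alone, peaks at or above the median score, equal numbers of peaks, an overlap of 500 bp and other minimums of the mean.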

Additional observations from a re-analysis of the deposited data

How the results depend on the processing

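Of 45 recomputed counts, 36 were within 1.5 times the count first given. The percentages in brackets below are shares of all placed genes under the same setting, not of the members. With equal numbers of peaks in each list, the MTF2 targets among the members were 6 in sh#2 cells (9.78% of all placed genes) and 6 in shCT cells (8.46%), 1 was a target in sh#2 cells and not in shCT cells (2.35%), and 6 had more bases in sh#2 cells (8.88%); fewer peaks enter by construction. With peaks at or above the median score, 7 members were MTF2 targets in shCT cells (8.96% of all placed genes) and 2 were targets in sh#2 cells alone (4.26%). With the promoter alone, 6 members were MTF2 targets in shCT cells (10.4%), 3 were targets in sh#2 cells alone (5.1%), and 3 of 42 partner genes were PHF19 targets (7.32%), since peaks within genes no longer count. The 1 member with MTF2 in shCT cells alone was CD9, but TSPAN3 at the median score and TSPAN33 with equal numbers of peaks. With all transcripts TSPAN31 joined each list. No paired analysis was possible because the expression table gives no value for each library and no test was run, and leaving out a replicate was not possible for the same reason.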
